A study of Mus musculus with 136 samples.

Results

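The 9 genes described here belong to the retinol and retinoic acid pathway and were measured in single mouse concepti, among 47643 genes in the deposited count table. They were picked by gene symbol. Rdh10, Aldh1a2, Dhrs3, Cyp26a1, Crabp1, Crabp2, Rarb and Rarg were picked for their place in the pathway, and Dhrs4 was selected on its own reading, a lower level in early embryos of diabetic dams. For Dhrs4 that contrast, and every contrast that uses the same embryo libraries, is therefore given as a description with no test. The libraries hold 3′ end counts of molecules from the embryo and from the visceral yolk sac of 66 concepti, taken at embryonic day 8.5 in the NOD strain, in which some dams become diabetic spontaneously by autoimmunity and others stay normoglycemic. The question the groups address is whether maternal diabetes goes with different transcript levels in either tissue.

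Concepti were grouped by somite pairs into an early stage (5 or 6 pairs) and a late stage (7 to 9 pairs). The early stage held 17 concepti of normal dams from 10 litters and 17 concepti of diabetic dams from 9 litters. The late stage held 16 normal concepti from 7 litters and 16 diabetic concepti from 6 litters, and 7 of these 16 came from the single litter D24M15. Blood glucose of the dams at collection was 105 to 164 mg/dl in the normal and 423 to 595 mg/dl in the diabetic group, and 1 diabetic litter has only a reading above the range of the meter. All dams were of this strain and ate the same chow, and no library comes from another model of diabetes. Littermates share a dam, and the tests below take each library as independent. In tests across tissues this holds also for the embryo and yolk sac of 1 conceptus. The 132 libraries held 1017901 to 5658850 counts (median 2302819). Values are normalized counts, that is counts divided by a size factor that puts all 132 libraries on one scale. In whole tissues, fewer cells of a type and less transcript per cell cannot be told apart.

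Retinoic acid is made from vitamin A in 2 oxidation steps. RDH10 oxidizes retinol to retinal, and ALDH1A2 oxidizes retinal to retinoic acid, mainly in the trunk mesoderm at this age, while DHRS3 returns retinal to retinol. CYP26A1 breaks retinoic acid down at the tail end and in the anterior of the embryo, and retinoic acid itself induces its gene. CRABP1 and CRABP2 bind retinoic acid in the cytoplasm, and the receptors RARB and RARG regulate genes with it in the nucleus, so that trunk, hindbrain and somites form under a graded supply.

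Cyp26a1 and Rarb are textbook direct targets of retinoic acid, and the promoter stretches that hold their response elements are printed here. Retinoic acid itself was not measured, so the levels of both genes given below are not a measure of its activity. The bases are from RefSeq, build GRCm38.p6, 5′ to 3′ on the strand of the gene, and capitals mark the 2 hexamers of a direct repeat with 5 bases between them. The Cyp26a1 stretch lies at chr19:37697688-37697807 on the plus strand, and the Rarb stretch at chr14:16575477-16575596 on the minus strand.
Cyp26a1: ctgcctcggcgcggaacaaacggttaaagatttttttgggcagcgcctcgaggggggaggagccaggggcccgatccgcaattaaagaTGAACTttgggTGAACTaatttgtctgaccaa
Rarb: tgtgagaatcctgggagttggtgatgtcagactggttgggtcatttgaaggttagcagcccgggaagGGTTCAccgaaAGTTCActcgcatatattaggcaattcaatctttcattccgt
In Cyp26a1 the repeat lay 32 to 16 bases before the annotated start and read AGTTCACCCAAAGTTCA on the opposite strand. In Rarb it lay 53 to 37 bases before the start and read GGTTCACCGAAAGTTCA on the strand of the gene. The search asked for GGTCA or GTTCA, 6 further bases, and GGTCA or GTTCA again, on both strands (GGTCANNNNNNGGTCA, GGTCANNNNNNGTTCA, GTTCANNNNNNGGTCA or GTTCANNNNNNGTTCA), in windows from 250 bases before to 50 bases after each start. Of 32851 promoter windows, 81 held such a repeat (0.247%). Windows were found for 7 of the 9 genes, 10 windows in all, and 2 of these held the repeat, those of Cyp26a1 and Rarb. Both genes were named beforehand as holding such an element, so these shares are a description and no test. Such a match describes letters and does not show binding.

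The tissue labels fitted their defining genes. Summed over 10 visceral endoderm genes (Afp, Ttr, Apoa1, Apob and others), yolk sacs had medians of 20299 to 32285 normalized counts in the 4 groups and embryos 449 to 665, so embryo libraries held a low level of these transcripts. Summed over 5 genes of the embryo proper (Sox1, Sox2, Otx2, Meox1, Tbx6), embryos had medians of 732 to 934 and yolk sacs of 5.04 to 16.9. The 5 decidual and trophoblast genes summed to at most 9.46 in embryos, but reached 340 in early and 719 in late diabetic yolk sacs, against at most 36.1 in normal ones. Nearly all of this came from Prl8a2, which reached 339 in early and 719 in late diabetic yolk sacs. The other genes of this list (Prl3c1, Prl2c2, Prl3d1 and Prl7d1) reached at most 13.4 in any library. The first principal component was taken within each tissue over both stages. By absolute score, the late diabetic D28M36C lay farthest out among embryos (70.72). It was followed by D28M23B (47.55) and D28M23D (38.64), also late and diabetic, and by the early diabetic D24M15C (37.14). Among yolk sacs the early normal N28M06A lay farthest out (72.39). It was followed by D28M36C (59.7), the early diabetic D28M02G (56.87) and the late normal N28M07H (40.03).

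The largest differences in these genes lay between the tissues. Yolk sacs held more transcript of Rdh10 and Cyp26a1 and, mostly at the late stage, Dhrs3, while embryos held more of Aldh1a2, both Crabp genes, both receptor genes and Dhrs4. All 8 genes tested at the early stage and all 9 at the late stage differed between yolk sac and embryo in edgeR's quasi-likelihood test, 3 of them higher in yolk sac at both stages. At these stages 79.1% and 81.2% of all genes tested passed the same threshold (adjusted p under 0.05), so the size and direction of each gene carry the description, not the count.

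**Figure D1:**
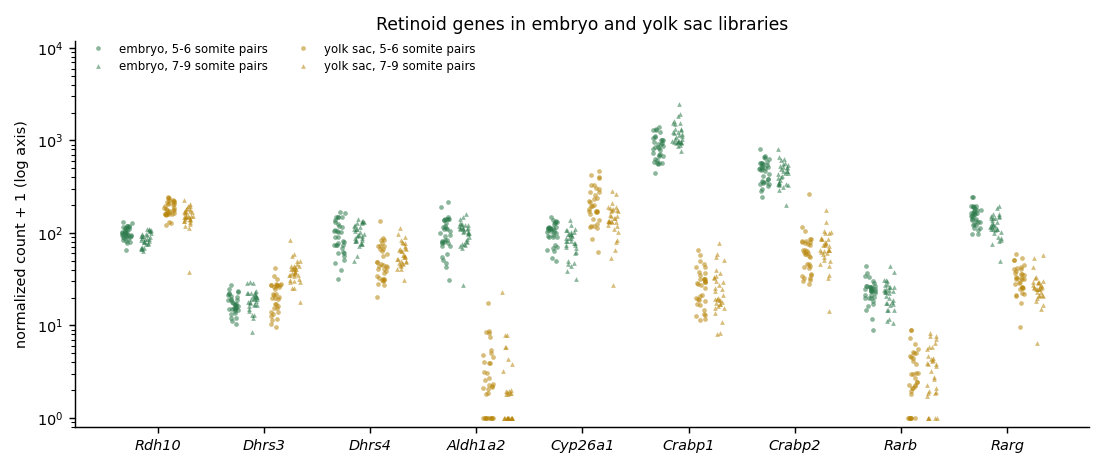
Normalized count plus 1 (log axis) of each gene in every embryo (green) and yolk sac (gold) library, with circles for the early and triangles for the late stage. Aldh1a2 and Crabp1 form separate clouds in the tissues, Rdh10, Dhrs3 and Cyp26a1 lie higher in yolk sac, and 10 early and 16 late yolk sac libraries sit at 0 for Aldh1a2.

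Aldh1a2, which encodes the enzyme that makes retinoic acid in the early embryo, was nearly absent from yolk sac. Early embryos ranged from 29.98 to 217 normalized counts (median 96.1, n = 34) and early yolk sacs from 0 to 16.3 (median 1.28, n = 34), with no count in 10 of them. Late embryos ranged from 26.04 to 158 (median 107, n = 32) and late yolk sacs from 0 to 22.1 (median 0.395), with no count in 16. The tissues did not overlap at either stage. Yolk sac over embryo, the log2 fold change was -5.16 (SE 0.23, adjusted p = 2.88e-33) and -5.47 (SE 0.24, adjusted p = 5.49e-33).

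Rdh10, the first step of synthesis, went the other way. Early yolk sacs ranged from 120 to 241 (median 178) and early embryos from 64.7 to 132 (median 98.1), a log2 fold change of 0.96 (SE 0.06, adjusted p = 1.42e-25). Late yolk sacs ranged from 36.4 to 225 (median 151) and late embryos from 62.5 to 109 (median 85.6), a log2 fold change of 0.86 (SE 0.08, adjusted p = 4.82e-17). The tissues overlapped at both stages, and the lowest late yolk sac was that of D28M36C. Dhrs3, whose product returns retinal to retinol, was 1.30 times as high in early yolk sacs as in early embryos (adjusted p = 0.00121) and 2.10 times in late ones (adjusted p = 9.22e-17). Dhrs4, a reductase that uses NADPH and takes retinal among other carbonyl substrates, was lower in late yolk sacs than in late embryos by 0.69 on the log2 scale (SE 0.09, adjusted p = 4.68e-10). Its early value of -0.81 (SE 0.12) has no test, because the early embryo libraries that chose it are in that contrast.

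Cyp26a1 was also the higher in yolk sac. Early yolk sacs ranged from 61.3 to 465 (median 195) and early embryos from 48.7 to 147 (median 108), a log2 fold change of 1.17 (SE 0.13, adjusted p = 2.16e-13). Late yolk sacs ranged from 26.5 to 280 (median 139.7) and late embryos from 30.6 to 137 (median 81.3), a log2 fold change of 0.87 (SE 0.12, adjusted p = 7.57e-10). The ranges overlapped widely, and yolk sacs varied more among themselves than embryos did.

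Crabp1, Crabp2, Rarb and Rarg were higher in embryos than in yolk sacs. Crabp1 ranged from 448 to 2496 normalized counts over all embryos and from 7.10 to 76.0 over all yolk sacs, without overlap, and the log2 fold change was -4.93 (SE 0.14) early and -5.52 (SE 0.15) late. Crabp2 was lower in yolk sac by 2.83 (SE 0.14) and 2.62 (SE 0.12) on the log2 scale. Rarb was counted in small numbers, with embryo medians of 22.9 early and 21.9 late and yolk sac medians of 1.83 and 2.73. Rarg had embryo medians of 155 and 118 and yolk sac medians of 31.1 and 24.6. The log2 fold changes were -3.17 (SE 0.19) and -2.89 (SE 0.19) for Rarb and -2.21 (SE 0.10) and -2.24 (SE 0.11) for Rarg, all with adjusted p under 0.05.

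Among 52 other genes of the pathway, 35 were tested between the tissues at the early and 34 at the late stage. At the early stage 10 were higher and 18 lower in yolk sac, and at the late stage 10 were higher and 17 lower, which makes 28 of 35 and 27 of 34 called beside 79.1% and 81.2% of all genes. Of the 8 listed genes for transport and storage of retinol 5 were tested, and 3 were higher and 2 lower in yolk sac at both stages.

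Between the stages, embryos lost some Rdh10, Cyp26a1 and Rarg transcript and gained Crabp1. In early embryos the Crabp1 median was 849 normalized counts (range 448 to 1410) and in late embryos 1103 (range 772 to 2496), a log2 fold change of 0.47 (SE 0.10, adjusted p = 0.000132). Rarg fell by 0.36 (SE 0.09, adjusted p = 0.00109), Cyp26a1 fell by 0.33 (SE 0.10, adjusted p = 0.0104) and Rdh10 fell by 0.19 (SE 0.06, adjusted p = 0.00564) on the log2 scale. These 4 of the 8 genes tested passed, where 29.8% of all genes did. For Cyp26a1 and Crabp1 the change differed between the conditions. The median of litter means of Cyp26a1 went from 92.0 to 93.2 in normal and from 113 to 71.2 in diabetic litters. That of Crabp1 went from 849 to 998 in normal and from 819 to 1397 in diabetic litters. The test of this difference between conditions is given below. Aldh1a2, Dhrs3, Crabp2 and Rarb did not pass (log2 fold changes of 0.02, 0.16, -0.07 and -0.08). For Dhrs4 the value was 0.11 (SE 0.11) and was not tested. Primitive erythroid genes moved with the stage in embryos, all 3 tested of the 5 listed being higher late, and the 5 summed to medians of 35.4 and 41.4 normalized counts in the early and 187 and 230 in the late groups. Their part in these changes was not tested.

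In yolk sacs, Dhrs3 had the largest change with stage of the 7 genes tested. Early yolk sacs ranged from 8.56 to 40.3 normalized counts (median 19.7) and late yolk sacs from 16.99 to 82.7 (median 37.6), so that late libraries were mostly higher but overlapped the early ones. The log2 fold change was 0.91 (SE 0.11, adjusted p = 2.38e-09). Cyp26a1 fell by 0.59 (SE 0.15, adjusted p = 0.00115), Rarg fell by 0.33 (SE 0.12, adjusted p = 0.0215) and Rdh10 fell by 0.24 (SE 0.08, adjusted p = 0.00758), the same 3 genes that fell in embryos. Of 7 genes tested, 4 passed, beside 40.0% of all genes. Dhrs4 (0.28, adjusted p = 0.0651), Crabp1 and Crabp2 did not pass, and Aldh1a2 and Rarb had too few counts in yolk sac to be tested. Primitive erythroid genes (4 of 5 higher late) and visceral endoderm genes moved with the stage in yolk sac, the latter 8 of the 10 higher and 1 lower at the late stage, and summed to medians of 20299 and 22429 early and 31450 and 32285 late. Erythroid sums had medians of 8426 and 8642 early and 18127 and 18268 late. Their part in the change of Dhrs3 was not tested.

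Maternal diabetes went with smaller differences. In embryos a change of the difference with stage passed for 2 of the 8 genes tested, Cyp26a1 and Crabp1, beside 8.70% of all genes. It did not pass under every choice given below. In yolk sacs it passed for no gene of the set. In early embryos none of the 8 genes tested passed (edgeR, adjusted p under 0.05), where 1.46% of all genes did. Rdh10 and Cyp26a1 were under an unadjusted p of 0.05 (2 of 8, where 2313 of all 11004 genes were), and DESeq2's Wald test also called 0 of 8. In late embryos 1 of the 9 genes passed, Crabp1, where 9.09% of all genes did. A count of 0 of 8 beside 1.46%, or of 1 of 9 beside 9.09%, is about what the background gives.

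**Figure D2:**
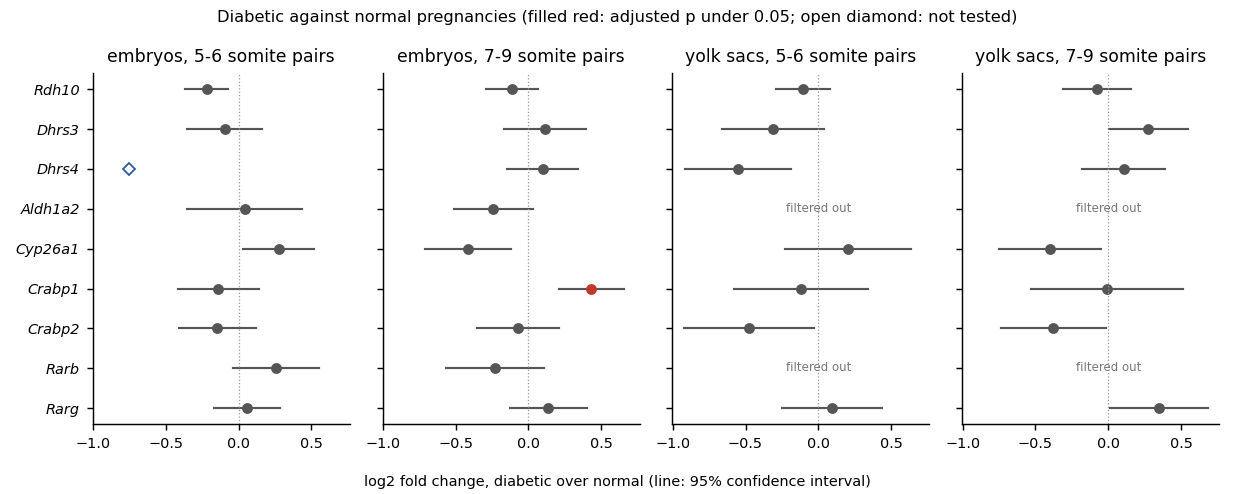
Log2 fold change, diabetic over normal, of each gene (rows) in embryos and yolk sacs of each stage (panels), with its 95% confidence interval. Crabp1 in late embryos (0.43) is the single filled red point, the open diamond is Dhrs4 in early embryos (-0.75, not tested), and Aldh1a2 and Rarb were filtered out in yolk sacs.

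Dhrs4 was lower in early diabetic embryos, which is why it is among these genes. Early normal embryos ranged from 50.5 to 166 normalized counts (median 124, n = 17) and early diabetic embryos from 30.7 to 105 (median 72.3, n = 17). All 17 diabetic embryos lay below the normal median and 13 of the 17 normal embryos lay above the highest diabetic one, but the ranges overlapped. The diabetic mean was 0.589 of the normal mean, and the fitted log2 fold change was -0.75 (SE 0.15). By litter, normal means ran from 50.5 to 166 and diabetic means from 46.7 to 88.8, and all 9 diabetic litters were below the normal median of 125. In these same libraries, by somite number, the diabetic mean was 63.2 ± 17.4 (SD, n = 13) at 5 and 94.9 ± 15.1 (SD, n = 4) at 6 pairs, against 113 ± 38.4 (SD, n = 11) and 133 ± 22.4 (SD, n = 6) in normal embryos.

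The ranges by title number were as follows. Library titles carry a number, 23, 24 or 28, whose meaning the labels do not give. Under number 28, 12 normal embryos ranged from 105.0 to 166 and 13 diabetic ones from 30.7 to 104.9, and these did not overlap, with 104.957 for the lowest normal and 104.927 for the highest diabetic embryo. Under number 24, 4 normal embryos ranged from 67.0 to 118 and 3 diabetic ones from 59.6 to 100.1. Under number 23 there was 1 embryo of each, at 50.5 and 46.8. The part of this number in the difference was not tested.

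**Figure D3:**
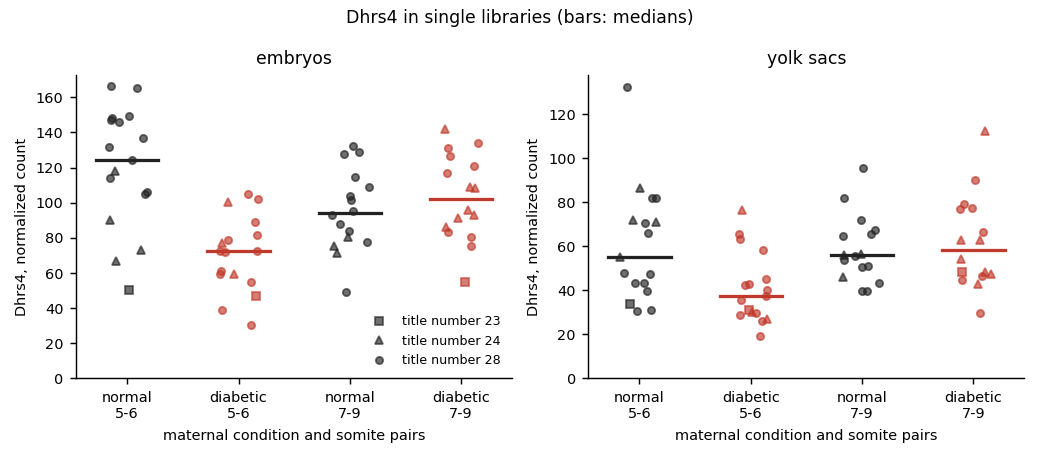
Dhrs4 normalized counts in single embryos (left) and yolk sacs (right) by maternal condition and somite stage, with bars at the medians and symbols for the number in the library title. Early diabetic embryos lie between 30.7 and 105, below most normal ones (50.5 to 166), and late diabetic and late normal embryos share one range.

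Measures that did not choose Dhrs4 gave the following. In late embryos the normal range was 49.0 to 132 (median 93.9) and the diabetic range 54.8 to 142 (median 102), a log2 fold change of 0.10 (SE 0.12, 95% interval -0.14 to 0.34, adjusted p = 0.616). In early yolk sacs, which are separate libraries of the same concepti, normal values ranged from 30.7 to 132 (median 55.2) and diabetic values from 19.1 to 76.4 (median 37.5). Diabetic yolk sacs were lower by 0.55 on the log2 scale (SE 0.18), with 6 of 17 below the lowest normal one and all 9 diabetic litters below the normal litter median, but the adjusted p was 0.522. In late yolk sacs the log2 fold change was 0.10 (SE 0.14, adjusted p = 0.828). 

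Rdh10, upstream of retinal, was slightly lower in early diabetic embryos without passing the test. Normal embryos ranged from 90.1 to 132 (median 106) and diabetic embryos from 64.7 to 128 (median 90.7). In all, 15 of the 17 diabetic embryos were below the normal median and 8 below the lowest normal embryo, and 8 of 9 diabetic litters were below the normal litter median. The log2 fold change was -0.22 (SE 0.07, adjusted p = 0.101). Without litter D24M15 it was -0.27 (adjusted p = 0.0357), without its embryo D24M15C alone -0.26 (adjusted p = 0.0491), and among libraries of title number 28 it was -0.27 (adjusted p = 0.0123), while no other alternative passed (adjusted p 0.0515 to 0.430, and 0.0571 to 0.280 over the other litters left out). The fit to title number 28 holds 25 of the 34 embryos. In late embryos it was -0.11 (SE 0.09, adjusted p = 0.411).

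Aldh1a2 and Dhrs3 showed no difference that passed. For Aldh1a2 the medians were 99.0 in normal and 81.9 in diabetic early embryos, and 112 and 97.8 in late ones. Early diabetic embryos spread the widest, from 29.98 to 217, with 3 below and 3 above the whole normal range (49.6 to 142). The log2 fold changes were 0.04 (95% interval -0.35 to 0.43) early and -0.24 (95% interval -0.51 to 0.03) late. Dhrs3 had medians of 16.7 and 14.5 early and 17.4 and 19.1 late, with log2 fold changes of -0.10 (95% interval -0.35 to 0.16) and 0.11 (95% interval -0.17 to 0.39). In yolk sacs its values were -0.31 (SE 0.17, adjusted p = 0.634) early and 0.27 (SE 0.13, adjusted p = 0.455) late.

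Cyp26a1 had the higher median in diabetic embryos early and the lower one late. Early normal embryos ranged from 48.7 to 112 (median 100.4) and early diabetic ones from 67.6 to 147 (median 116), and 10 of the 17 diabetic embryos were above the highest normal one. Late normal embryos ranged from 59.4 to 137 (median 94.8) and late diabetic ones from 30.6 to 106 (median 75.2), and 14 of the 16 diabetic embryos were below the normal median. The ranges overlapped at both stages. Neither contrast passed by itself, with a log2 fold change of 0.28 (SE 0.12, adjusted p = 0.185) early and -0.41 (SE 0.15, adjusted p = 0.0644) late.

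The change of the diabetic difference from early to late was tested as an interaction in all 66 embryos, and for Cyp26a1 it was -0.68 on the log2 scale (SE 0.19, adjusted p = 0.0227). With litter as a random block it was -0.83 (adjusted p = 0.0111), and with no filter on low counts -0.66, which did not pass (adjusted p = 0.0526). The interaction was -0.54 and did not pass (adjusted p = 0.0580) without D28M36C, D28M23B and D28M23D. These are the 3 late diabetic embryos farthest out on the first principal component. The call thus sat near the threshold and was lost without them. By litter, 7 of 9 early diabetic litters were above and 6 of 6 late ones below the normal litter median. Normal embryos had means of 92.0 ± 21.7 (SD, n = 17) early and 92.4 ± 20.7 (SD, n = 16) late, while diabetic embryos went from 111 ± 24.6 (SD, n = 17) to 68.2 ± 23.1 (SD, n = 16). The 3 diabetic litters with embryos at both stages, D24M15, D28M23 and D28M36, each had the lower mean at the late stage. In D24M15 it went from 129 (n = 2) to 75.2 (n = 7), in D28M23 from 89.6 (n = 3) to 40.2 (n = 2) and in D28M36 from 88.8 (n = 1) to 58.5 (n = 2). Of the 7 normal litters with both stages, 5 had the higher mean at the late stage, from 48.7 (n = 1) to 88.1 (n = 3) in N28M07 and from 89.7 (n = 2) to 96.8 (n = 1) in N28M30 for example, and 2 had nearly the same or a slightly lower one (80.9 and 77.3 in N24M21, 94.2 and 93.2 in N28M06).

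Late Cyp26a1 sat near the threshold under other choices. DESeq2's Wald test gave an adjusted p of 0.0439, the title number as a covariate 0.0259 and title number 28 alone 0.0491, and the other choices kept it above 0.05 (0.0559 to 0.212, and 0.0517 to 0.147 without 1 litter, the highest without D28M23). Without D28M36C, D28M23B and D28M23D the log2 fold change was -0.27. In yolk sacs the log2 fold change was 0.21 (SE 0.21, adjusted p = 0.808) early and -0.40 (SE 0.17, adjusted p = 0.405) late, and the change between the stages was -0.60 (SE 0.29, adjusted p = 0.850). The late yolk sac value of D28M36C was the lowest of all, 26.5, in the library with the fewest counts.

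**Figure D4:**
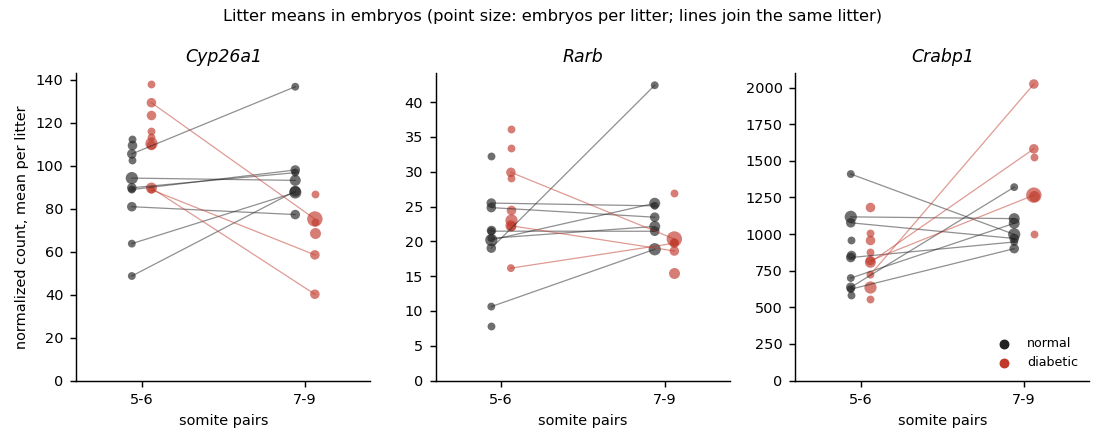
Mean normalized count per litter in embryos for Cyp26a1, Rarb and Crabp1 at the early and late stage, in normal (black) and diabetic (red) litters, with point size for the number of embryos and lines between the stages of one litter. Late diabetic litters lie at 40.2 to 87.0 for Cyp26a1 and at 998 to 2024 for Crabp1.

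Crabp1 was the gene that passed in late embryos. Normal embryos ranged from 772 to 1320 (median 967, n = 16) and diabetic embryos from 968 to 2496 (median 1287, n = 16). All 16 diabetic embryos were above the normal median and 8 above the highest normal embryo, but the ranges overlapped. The log2 fold change was 0.43 (SE 0.11, adjusted p = 0.0135), and all 6 diabetic litters were above the normal litter median. With litter as a random block the value was 0.42 and the adjusted p 0.0547, and with counts summed per litter 0.43 and 0.125, so the call does not hold once litters replace embryos as the unit. Leaving out any 1 litter kept the call.

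At the early stage Crabp1 did not separate the groups. Normal embryos ranged from 564 to 1410 (median 842) and diabetic ones from 448 to 1283 (median 857), a log2 fold change of -0.14 (SE 0.14, adjusted p = 0.592). The interaction with stage was 0.59 (SE 0.18, adjusted p = 0.0352), and 0.58 with litter as a random block (adjusted p = 0.0333). Without D28M36C, whose embryo had the highest value of all, it was 0.51 with an adjusted p of 0.0599, and the late difference alone was 0.36 without it (adjusted p = 0.0242). Without D28M23B and D28M23D as well, the interaction was 0.47 (adjusted p = 0.0938) and the late difference 0.33 (adjusted p = 0.0489). With no filter on low counts the interaction did not pass either (adjusted p = 0.0659). In yolk sacs the log2 fold changes were -0.12 (SE 0.23) and -0.01 (SE 0.26).

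Of the 8 genes tested for such a change with stage in embryos, Cyp26a1 and Crabp1 passed, beside 8.70% of all genes, and 0 of 8 passed without those 3 late embryos, where 590 genes were called in place of 984. Rarb, also an induced target, had an interaction of -0.47 (SE 0.22, adjusted p = 0.149). Early diabetic embryos had 25.1 ± 7.01 normalized counts (SD, n = 17) and normal ones 20.9 ± 6.04 (SD, n = 17), and late ones 19.5 ± 5.89 (SD, n = 16) and 23.5 ± 8.48 (SD, n = 16). The log2 fold changes were 0.26 (SE 0.15, adjusted p = 0.309) and -0.23 (SE 0.17, adjusted p = 0.376). These point the same ways as those of Cyp26a1, but neither they nor the interaction passed. Of 12 other known retinoic acid target genes tested for this change, 1 was called higher, opposite to Cyp26a1, and 0 lower. Their median was -0.12. For Dhrs4 the interaction was 0.87 (SE 0.20) and was not tested.

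Crabp2 and Rarg did not pass in embryos at either stage. Crabp2 had medians of 490 and 436 in normal and diabetic early embryos and 446 and 444 in late ones, with log2 fold changes of -0.15 (95% interval -0.41 to 0.12) and -0.07 (95% interval -0.35 to 0.21). Rarg had medians of 142 and 159 early and 118 and 119 late, with log2 fold changes of 0.06 (95% interval -0.17 to 0.28) and 0.14 (95% interval -0.13 to 0.40). Each interval gives the differences that are compatible with these embryos when each is taken as independent, so a difference inside it is not excluded. Within single somite or title numbers the values were less even, and were not tested. At 7 pairs Rarg ranged from 151 to 194 in the 4 diabetic embryos and from 74.9 to 146 in the 7 normal ones, without overlap. The 4 diabetic embryos included D28M36C and D28M23D. How many of all genes separate at 7 pairs was not counted. At the other somite numbers diabetic and normal means of Rarg were 155 and 137 (5 pairs), 170 and 180 (6), 108 and 121 (8), and 127 and 113 (9). Early Crabp2 had a mean of 410 ± 120 in diabetic (SD, n = 13) and 528 ± 127 in normal embryos (SD, n = 12) under title number 28, but 606 ± 82.4 (SD, n = 3) and 452 ± 120 (SD, n = 4) under number 24.

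**Figure D5:**
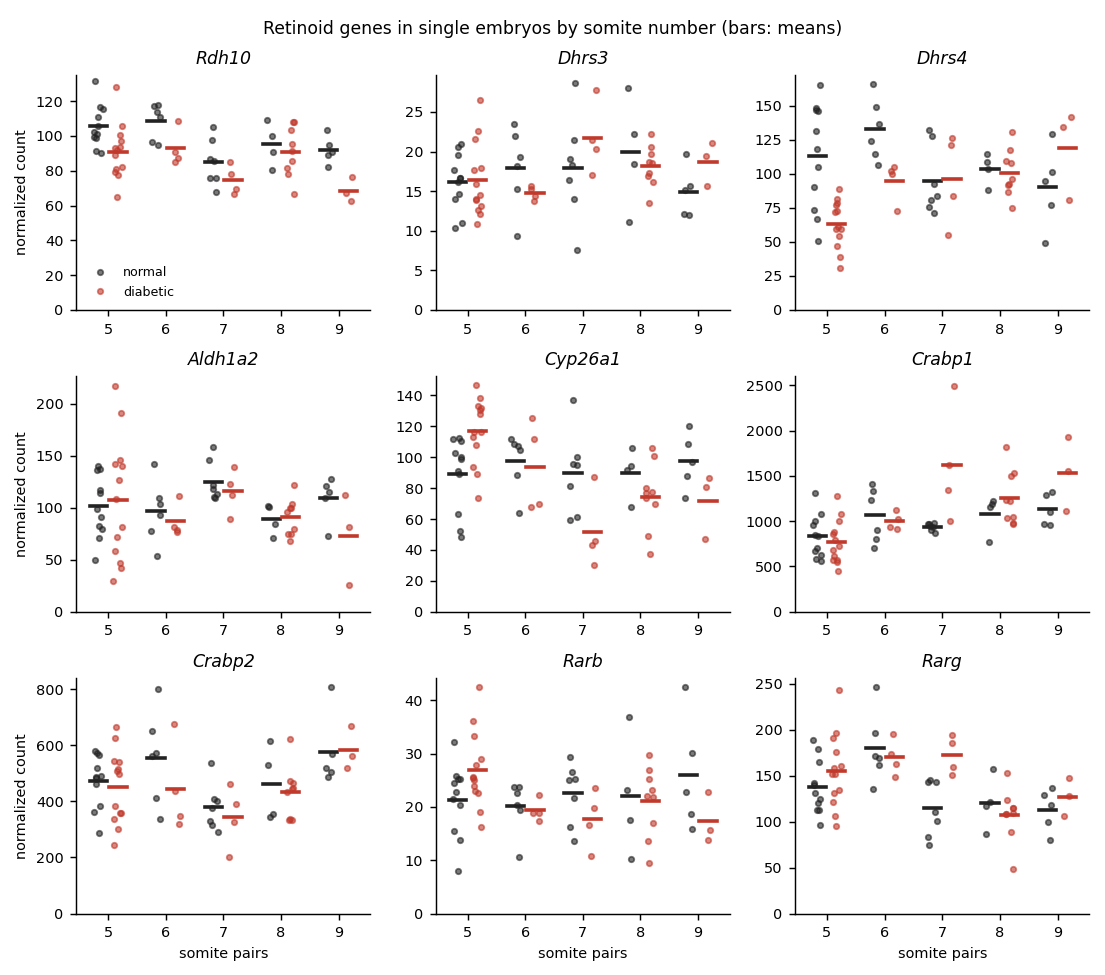
Normalized counts of the 9 genes in single embryos by somite number, in normal (black) and diabetic (red) pregnancies, with bars at the means. Dhrs4 is lower in diabetic embryos at 5 and 6 pairs, Cyp26a1 is higher at 5 pairs (mean 117 against 89.1) and lower at 7 pairs (51.5 against 90.1), and Crabp1 is higher from 7 pairs on.

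By somite number, diabetic embryos had the higher mean of Cyp26a1 at 5 pairs and the lower one from 6 pairs on. Diabetic and normal means were 117 and 89.1 at 5 pairs, 93.5 and 97.4 at 6, 51.5 and 90.1 at 7, 74.5 and 90.0 at 8, and 71.4 and 97.5 at 9. Crabp1 means were 775 and 834 at 5 pairs, 997 and 1066 at 6, 1615 and 936 at 7, 1257 and 1084 at 8, and 1530 and 1129 at 9. At 7 pairs the 4 diabetic embryos had an SD of 640 for Crabp1, against 38.8 in the 7 normal ones. These 4 diabetic embryos included D28M36C and D28M23D. Groups of 3 to 13 embryos stand behind these means, and no test was run by single somite number.

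In yolk sacs no gene of the set passed in either contrast with diabetes. Of 7 genes tested, 0 passed at the early stage, where 0% of all 10250 genes did in edgeR (863 under an unadjusted p of 0.05, and 0 by DESeq2), and 0 at the late stage, where 0.0194% of all genes did (1122 under an unadjusted p of 0.05, and 15 genes, none of these 7, by DESeq2). Under an unadjusted p of 0.05 were Dhrs4 and Crabp2 early, and Cyp26a1, Crabp2, Rarg and Dhrs3 late. Crabp2 had a median of 81.1 in normal and 60.0 in diabetic late yolk sacs, with 7 of 16 diabetic ones below the lowest normal one, and a log2 fold change of -0.38 (SE 0.18, adjusted p = 0.433). Without litter D28M31 it was -0.65 and passed (adjusted p = 0.0420). Rarg had a log2 fold change of 0.35 (SE 0.17, adjusted p = 0.433). Prl8a2, of the decidual and trophoblast list, was higher in some diabetic than in normal yolk sacs, as given above. Its part in these values was not tested.

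The change of the diabetic difference between stages was also tested in yolk sacs, where 0 of 7 genes passed beside 0% of all genes (634 under an unadjusted p of 0.05, and 0 by DESeq2). Dhrs4 (0.66, SE 0.24), Dhrs3 (0.59, SE 0.22) and Cyp26a1 (-0.60, SE 0.29) were under an unadjusted p of 0.05. Between the tissues, the diabetic difference changed in 0 of 8 genes at the early stage, beside 0% of all genes (895 under an unadjusted p of 0.05, and 0 by DESeq2), and in 0 of 9 at the late stage, beside 0.389%. For Crabp1 at the late stage the difference in yolk sac minus that in embryo was -0.43 (95% interval -0.97 to 0.11), so a difference confined to the embryo is not shown.

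The other 52 genes of the pathway were called with diabetes about as often as all genes. In early embryos 1 of 33 tested passed, beside 1.46% of all genes. It was Rdh14, a retinol dehydrogenase, with 28.7 ± 8.47 (SD, n = 17) normalized counts in normal and 19.3 ± 5.75 (SD, n = 17) in diabetic embryos and a log2 fold change of -0.56 (SE 0.15, adjusted p = 0.0386). In late embryos 3 of 32 passed, beside 9.09% of all genes. Ncoa2, a coactivator of nuclear receptors, fell by 0.41 (SE 0.10, adjusted p = 0.0092), and Meis2, a homeobox gene that retinoic acid induces, fell by 0.23 (SE 0.07, adjusted p = 0.0343). Tgm2, a transglutaminase gene and a direct target, rose by 0.47 (SE 0.14, adjusted p = 0.0344), so that of the 12 other known target genes tested 1 rose, 1 fell and 10 did not pass. Over the whole list of 61 genes the median log2 fold change of those tested was 0.02 early and -0.03 late, against 0.00 and -0.01 over all genes tested. In yolk sacs 0 of 27 passed at either stage in edgeR. Of the 4 calls, only that of Ncoa2 held with litter as a random block (adjusted p = 0.0371), and it did not hold with counts summed per litter (adjusted p = 0.0677). Without D28M36C, D28M23B and D28M23D those of Meis2 (adjusted p = 0.0656) and Tgm2 (adjusted p = 0.0866) were lost. With the litter block Rdh14 had an adjusted p of 0.201, Meis2 0.0928 and Tgm2 0.0928. Single litters also decided 3 of them. The call of Rdh14 was lost without any 1 of D23M11, D24M22, D28M02, D28M23, D28M53, N24M29, N28M03, N28M05, N28M06, N28M22 or N28M30 (log2 fold change -0.46 to -0.62 over all 19 litters left out). That of Meis2 was lost without D24M15, D28M31, N24M29, N28M03, N28M05 or N28M07 (-0.18 to -0.25), and that of Tgm2 without D28M23, D28M36, N28M03, N28M05, N28M06 or N28M07 (0.41 to 0.58).

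Across the 66 embryo libraries, the genes differed in what they varied with, described here by Pearson's r of log2(normalized count + 1). These libraries share stage, condition and litters, so an r is a description and no test. Cyp26a1 and Crabp1 ran opposite to each other (r = -0.59), as did Dhrs4 and Rarb (r = -0.52) and Dhrs4 and Cyp26a1 (r = -0.47), while Crabp2 and Rarb ran with Cyp26a1 (r = 0.45 and 0.42). Among 10056 genes, Notum (r = 0.84) and Cmtm6 (r = 0.83) were the most like Cyp26a1, Aldoa (r = 0.85) and Myl9 (r = 0.82) the most like Crabp1, and Yeats4 (r = 0.87) and Gpat4 (r = 0.86) the most like Dhrs4. Aldh1a2 was most like Pcdh19 (r = 0.71) and Foxc2 (r = 0.68), and Rarg most like Etv4 (r = 0.80) and Epha1 (r = 0.75). For Rdh10 these were Eif4g2 (r = 0.70) and Ube2j2 (r = 0.63), for Crabp2 Fam216a (r = 0.75) and Sf3b5 (r = 0.75), for Rarb Golga5 (r = 0.73) and Ints8 (r = 0.73), and for Dhrs3 Dhrs13 (r = 0.57) and Rnf121 (r = 0.56).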

How the data were processed

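Embryos and visceral yolk sacs were sequenced singly as 3′ end libraries with molecular identifiers (QuantSeq FWD). The submitters' processing notes name STAR, HTSeq and the mm10 build, and their versions and the annotation used are not given in the sources used here. The authors deposited raw counts of molecules per gene, without normalization or filter. Counts on a 3′ kit depend on how the gene's end is annotated, so levels are compared between libraries and not between genes. Positions and names were taken from GENCODE M21 on GRCm38 (all 9 genes matched), and promoter bases from RefSeq on GRCm38.p6.

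Groups follow the labelled tissue, maternal condition and somite number, and the stage of a yolk sac is that of the embryo with the same title. The 4 duplicate libraries (title stems D24M15G and N28M06C) were left out. Their originals differed from them by at most 0.38 on the log2 scale in genes of this set with enough counts. Tests used edgeR 4.0.16 (R 4.3.3; TMM normalization, filterByExpr with its minimum count of 10, glmQLFit and glmQLFTest, two-sided) across all genes, with Benjamini-Hochberg adjustment over all genes tested and a threshold of 0.05. Contrasts of tissues and stages kept maternal condition as a term, and changes of the diabetic difference were interaction terms. Fold changes of edgeR carry its prior count, which pulls low genes toward 0. Normalized counts use DESeq2 1.42.0 size factors over the 132 libraries. The test was checked on simulated counts with known changes, drawn without a litter effect, so the check does not cover littermates.

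No dam gave both diabetic and normal concepti, which leaves those groups unpaired. Embryo and yolk sac of 1 conceptus are paired by title, and over genes the deviations of the pair from their group means had a median correlation of 0.107 early and 0.0570 late (lowest -0.355 and -0.389). An alternative fit of the tissue contrasts took each conceptus as a replicate block. No such fit was run for the change of the diabetic difference between tissues. Other alternatives were DESeq2's Wald test (limma 3.58.1 for litter as a random block, with littermate correlations of 0.0992 to 0.251 in the contrasts with diabetes), other scalings and filters, covariates, litter sums and leaving out each litter. Depth limits Aldh1a2 and Rarb in yolk sac, which failed the filter. Intervals cover the spread between concepti as the model estimates it. No duplicated column or column of another series was used.

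The 9 genes, the pathway list, the markers and the tests were chosen with earlier results of these data known. Named genes are the 9, the pathway genes called in a contrast with diabetes (at most 5 in each direction) and marker genes. For each of the 9, the 2 genes with the highest Pearson correlation over the embryos are also named, among genes with a mean of at least 10.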

Additional observations from a re-analysis of the deposited data

Results flagged for a closer look

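The difference between diabetic and normal embryos changed from the early to the late stage in 2 of the 8 genes tested. The test was of the change itself in edgeR, and 8.70% of all genes passed it. Of the other pathway genes, 3 of 33 tested passed, 2 higher and 1 lower. For Cyp26a1 the change was -0.68 on the log2 scale (adjusted p = 0.0227), with early diabetic embryos above and late diabetic embryos below normal ones. For Crabp1 the change was 0.59 (adjusted p = 0.0352), with late diabetic embryos above normal ones. The embryos of the 2 stages came partly from different litters, and 7 of the 16 late diabetic embryos came from litter D24M15. Without that litter the changes were -0.76 for Cyp26a1 (adjusted p = 0.0239) and 0.68 for Crabp1 (adjusted p = 0.0273). With no filter on low counts neither passed (adjusted p = 0.0526 for Cyp26a1 and 0.0659 for Crabp1), and without conceptus D28M36C Crabp1 did not (adjusted p = 0.0599). Without D28M36C, D28M23B and D28M23D, the late diabetic embryos farthest out on the first principal component, neither passed (-0.54, adjusted p = 0.0580, for Cyp26a1 and 0.47, adjusted p = 0.0938, for Crabp1).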

How the results depend on the processing

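The contrasts of tissues and of stages kept their calls for these genes under the alternatives, with 1 exception, Dhrs4 between stages in yolk sacs, which passed with litter as a random block (0.29, adjusted p = 0.0455). With the conceptus as a replicate block, the log2 fold change of Aldh1a2, yolk sac over embryo, was -5.22 early and -5.65 late, 9284 and 9384 genes were called, and no call among the 9 genes changed. Without a filter on low counts 14180 and 14915 genes differed between the tissues.

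The contrasts with diabetes depended on how litters were treated. In early embryos, 161 genes passed, but 396 by DESeq2, 291 with no filter, 92 with somite number and sex as covariates, 324 with the title number as a covariate, 4 with litter as a random block, 0 with counts summed per litter and 1753 among libraries of title number 28, where 1 of the 8 genes tested passed (Rdh10, also without D24M15C). Leaving out 1 litter gave 4 (without N28M06) to 675 (without N24M21) genes and 0 to 1 of the 8. In late embryos 966 passed, but 1714 with the title number, 314 with the litter block, 8 with litter sums and 520 without concepti D28M36C, D28M23B and D28M23D, and 501 (without N28M05) to 1067 without 1 litter, which left 1 of the 9 genes called each time. Of the 9 genes, 2 were called by DESeq2, with the title number and among title number 28, and 0 with the litter block or litter sums. Early yolk sacs gave 1 gene with somite number and sex, 1 with the title number, and 0 to 3 without 1 litter. Late yolk sacs gave 15 by DESeq2, 25 with no filter, 11 with a mean count of at least 10, 1 with the litter block, 0 with litter sums, 0 among title number 28, and 0 (without D24M15) to 28 (without D28M31) without 1 litter, with 0 to 1 of the 7 genes. The change of the diabetic difference with stage in embryos was called for 438 genes and 0 of the 8 with no filter, where Cyp26a1 had an adjusted p of 0.0526 and Crabp1 of 0.0659, for 1735 genes among title number 28, for 1 of the 8 without conceptus D28M36C, and for 590 genes and 0 of the 8 without D28M36C, D28M23B and D28M23D. Its change between tissues at the late stage was called for 219 genes by DESeq2 and 22 with no filter, against 45.

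Signs turned in values near 0 that passed under no choice. Aldh1a2 in early embryos was -0.18 with the litter block, -0.13 with litter sums, -0.16 among title number 28, -0.066 without D24M15C and -0.073 to 0.16 without 1 litter, and its change with stage was 0.045 among title number 28. Crabp2 was 0.0094 with litter sums in early embryos and -0.13 to 0.010 without 1 litter in late ones, where it was 0.053 without D28M36C, D28M23B and D28M23D, and its change with stage was -0.022 with the litter block. Rarg in early embryos was -0.026 among title number 28 and -0.0076 to 0.091 without 1 litter, and in early yolk sacs -0.018 without concepti D28M02G and N28M06A and -0.021 to 0.17 without 1 litter. Cyp26a1 in early yolk sacs was -0.050 among title number 28. Crabp1 in late yolk sacs was 0.041 with somite number and sex, 0.023 with the litter block, 0.011 with litter sums, 0.019 without D28M36C and -0.28 to 0.30 without 1 litter. The cause of these changes was not tested. Fits restricted to title number 28, without named concepti or without litter D24M15, and the litter block for the change with stage, were chosen after seeing the data. Genes with few counts in yolk sac are limited by depth.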
